A study of Mus musculus with 36 samples.

Results

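Chromatin accessibility 3 days after the start of direct cardiac reprogramming was compared with that of fibroblasts by ATAC-seq, which uses a transposase to cut and tag the DNA it can reach. The comparison rests on 6 of the 36 samples in the labels, 3 libraries of each group, and on every region of the count table that passed a filter on low counts, which were 144810 of 1393120 regions. Both groups started from Thy1+, alpha-MHC-GFP-negative cells grown out of neonatal hearts of CD-1 mice, described as largely fibroblasts. The day 3 cells received retroviruses for Gata4, Mef2c and Tbx5 (GMT), the TGF-beta inhibitor sb431542 and the Wnt inhibitor xav939. They were sorted for alpha-MHC-GFP, a reporter driven by a cardiac myosin promoter, at day 3. The fibroblasts carried a dsRed retrovirus, were grown without the inhibitors, and were collected as dsRed+ cells at day 7. The factors, the inhibitors, the sort and the time in culture therefore differ together between the groups, and their effects cannot be told apart. GMT cells with inhibitors at days 2, 7, 14 and 21, also 3 libraries each, shared the fit.

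In a nucleus most DNA is wound on nucleosomes, and promoters and enhancers in use are left accessible to transposase. Gata4 is a zinc-finger factor, Mef2c a MADS-box factor and Tbx5 a T-box factor, and all 3 are known for their parts in heart development. Direct reprogramming forces such factors into fibroblasts to obtain cardiomyocyte-like cells without a stem cell stage, and blocking TGF-beta and Wnt signalling is known to raise its yield. Accessibility here is a read count per region, so fewer cells with an open region and a less open region in each cell cannot be told apart. Reads from delivered copies of the factors and reads from chromatin also cannot be told apart. Regions are given by position in mouse build mm9, since no annotation or sequence of that build was used here. No gene is named for them, and neither fibroblast nor cardiomyocyte markers were checked.

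Depth differed between libraries, at 17.3, 6.77 and 2.34 M counts in fibroblasts and 2.95, 9.89 and 23.2 M at day 3, in the order of the replicate numbers. A single region, chr1:24618407-24622986, took 49.4, 49.3 and 14.5% of the fibroblast counts and 12.8, 27.6 and 19.9% of the day 3 counts. Levels below are counts per M of effective library size (CPM), scaled by trimmed means of log ratios (TMM), and log2 fold changes are day 3 against fibroblasts. Day 3 replicate 1 stood apart from the other day 3 libraries. Across the tested regions the Pearson correlation of log2(CPM + 0.5) was 0.801 and 0.821 between replicate 1 and the other two, against 0.938 between replicates 2 and 3 and 0.832 to 0.898 among fibroblasts. Over 2357 regions of high level (average log2 CPM of at least 5), replicate 1 had a median of 20.6 CPM, replicates 2 and 3 had 44.8 and 47.9 CPM, and the fibroblasts had 37.6 to 40.0 CPM. Day 2 replicate 1 had a similar low median of 22.7 CPM. Named strong regions are therefore given with and without day 3 replicate 1.

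At day 3 accessibility differed from fibroblasts in 31908 of the 144810 regions, 22.0% of those tested (edgeR's quasi-likelihood test, Benjamini-Hochberg adjusted p under 0.05). Of these, 19104 regions (13.2%) were higher and 12804 (8.84%) were lower, so 59.9% of the calls were gains. The called gains had a median log2 fold change of 1.80, with 10% of them below 1.10 and 10% above 3.01. The called losses had a median of -1.53, with 10% below -2.34 and 10% above -1.01. The median over all regions tested was -0.01. The median level of the regions that rose went from 1.11 CPM in fibroblasts to 4.20 CPM at day 3, and that of the regions that fell went from 3.98 to 1.26 CPM.

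Among the regions called, large changes were mostly gains. A fitted change of at least 4-fold was found in 7480 of the regions that rose (39.2%) and in 2675 of those that fell (20.9%). At 8-fold or more the counts were 1927 and 239, and at 16-fold or more they were 439 and 20. With regions that had no count in one group set to their lower bound, explained below, the counts at 16-fold or more were 348 and 19, and the median gain remained at 1.80. The split between gains and losses moved with the scaling. With library totals alone 88.5% of the calls were gains, and the median over all regions moved to 0.51. With loess offsets gains made up 53.3%, and with no filter on low counts 91.7% of 15639 calls. Without day 3 replicate 1 there were 31002 calls, of which 63.5% were gains, and without fibroblast replicate 1 there were 20578, of which 60.9% were gains.

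**Figure D1:**
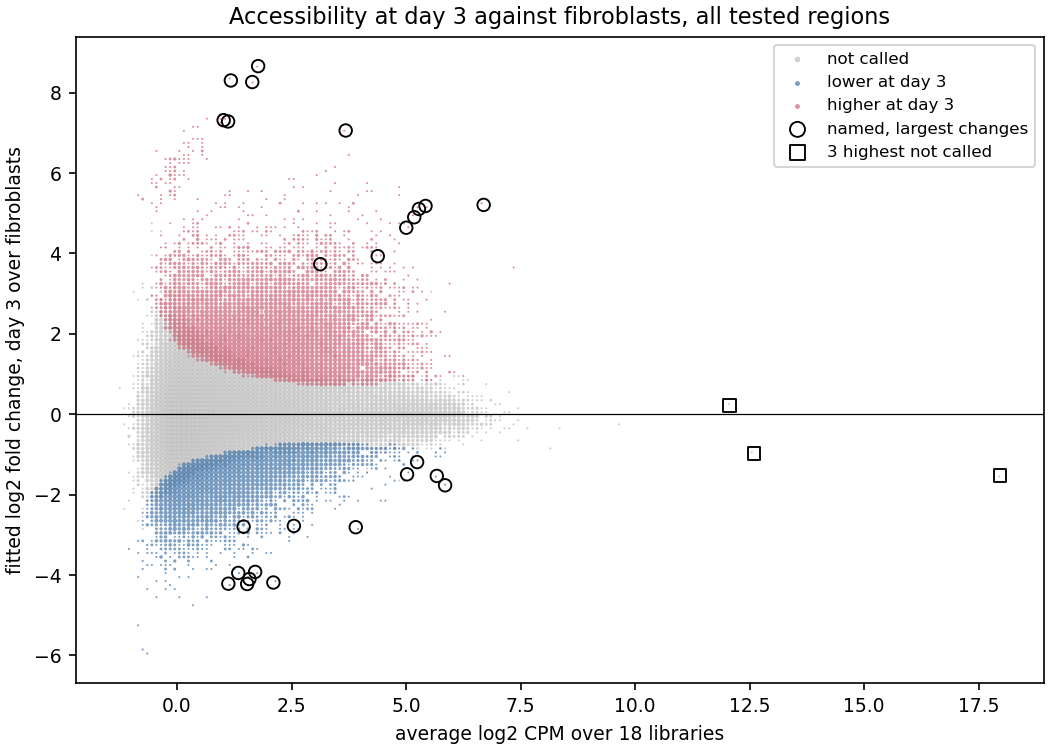
Log2 fold change at day 3 against fibroblasts (y axis) by level (x axis, average log2 CPM over 18 libraries) for the 144810 regions tested, with the 19104 regions called higher in red, the 12804 called lower in blue, circles for named called regions and squares for the 3 highest regions not called. Called gains reach larger fold changes than called losses and few regions are called at the highest levels, while fold changes of regions with no fibroblast count depend on edgeR's prior count.

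Calls were concentrated at moderate levels. With levels taken as the mean of both groups' log2(CPM + 0.5), 23.4% of regions between 2 and 3 rose and 15.3% fell. Between 4 and 5 the shares were 8.21 and 5.28%. Among the 1828 regions at 5 or above, 16 rose and 33 fell. From 0 to 5 gains were the majority in every class, at 57.0 to 61.2% of the calls. Below 0 gains stood at 11.4% and losses at 0.235% of 5116 regions, but regions that weak could pass the filter through any of the 5 reprogramming groups and so were not an even sample of both directions.

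Complete absence of reads in fibroblasts was rare among the tested regions. Of the tested regions 99 had no count in any fibroblast library, and 94 of them were called higher, which is 0.492% of the gains. Regions without fibroblast counts could pass the filter only through the reprogramming groups, so the direction of these calls was largely set in advance. These 94 regions had a median of 31.5 counts and 0.913 CPM at day 3, and for 16 of them day 3 was at least 10-fold higher. Such a fold is set against 3 counts over the 3 fibroblast libraries together, which is 0.166 CPM. In the other direction 1 tested region had no count at day 3. The usual gain was thus a rise from a low but measurable level.

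By a fixed rule, regions are named only where all 3 libraries of one group lay above all 3 of the other, which held for 35.4% of all tested regions, for 92.1% of the called gains and for 91.3% of the called losses. All 12 regions described next, the 6 largest fitted rises and 6 largest fitted falls among called regions whose average log2 CPM was 1 or more, were called in every alternative tried. These and the strong and broad regions below were picked for the size of their change in the same libraries. Their calls in the alternatives therefore do not speak for the other called regions. The region at chr11:57780029-57780707 had no count in any fibroblast library and 7.65, 6.11 and 3.26 CPM in day 3 replicates 1 to 3. It was at least 34.2-fold higher at day 3. The region at chr1:88476595-88477346 had no fibroblast count and 5.01, 3.11 and 4.43 CPM at day 3, at least 25.2-fold higher. These 2 regions differed at later times in their mean levels, which at day 21 were 2.62 CPM for the first and 0.771 CPM for the second.

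Likewise without fibroblast counts, chr1:163043787-163045464 had 3.96, 4.83 and 3.38 CPM at day 3, at least 24.4-fold higher. At chr11:54332748-54333168 the day 3 libraries had 2.37, 2.57 and 1.59 CPM, at least 13.1-fold higher. At chr14:62508227-62509271 they had 1.85, 2.14 and 2.01 CPM, at least 12.0-fold higher. All 3 were still present at day 21, with means of 2.83, 2.15 and 1.99 CPM. The remaining rise, chr12:8390481-8391254, had 0.0912, 0.231 and 0 CPM in fibroblasts, which is 1, 1 and 0 counts. It had 31.1, 8.90 and 12.0 CPM at day 3, with day 3 replicate 1 the highest. Its log2 fold change was 7.06 ± 0.65 (SE, adjusted p = 7.28e-12 in edgeR's quasi-likelihood test), and its fibroblast level rests on 2 counts.

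The 6 largest falls started from moderate levels and ended at or below 1.05 CPM on average. The region at chr12:41816290-41817379 had 14.0, 13.0 and 14.4 CPM in fibroblasts and 0.527, 0.536 and 0.877 CPM at day 3. Its log2 fold change was -4.22 ± 0.37 (SE, edgeR's quasi-likelihood test, adjusted p = 2.72e-13). The region at chr13:60535444-60537403 fell from 8.12, 10.6 and 8.65 CPM to 0.527, 0.322 and 0.543 CPM, a log2 fold change of -4.21 ± 0.42. In both, the fibroblast libraries were close together.

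At chr17:13090609-13091791 the fibroblast libraries were more spread, at 19.8, 28.0 and 12.6 CPM, and the day 3 libraries had 0.527, 0.858 and 1.42 CPM (log2 fold change -4.18 ± 0.34). The region at chr1:151954712-151957204 fell from 12.0, 11.8 and 20.9 CPM to 1.58, 1.07 and 0.501 CPM (-4.10 ± 0.38). At chr10:10274924-10275808 levels fell from 9.39, 9.95 and 16.9 CPM to 0.264, 0.965 and 0.752 CPM (-3.95 ± 0.40). The last, chr10:85803917-85805438, fell from 19.2, 13.4 and 9.73 CPM to 0.527, 1.29 and 0.877 CPM (-3.92 ± 0.38) and lies within a longer stretch of losses described below. At all 6 the mean of the day 2 libraries, at 0.826 to 1.32 CPM, was already far below that of the fibroblasts.

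**Figure D2:**
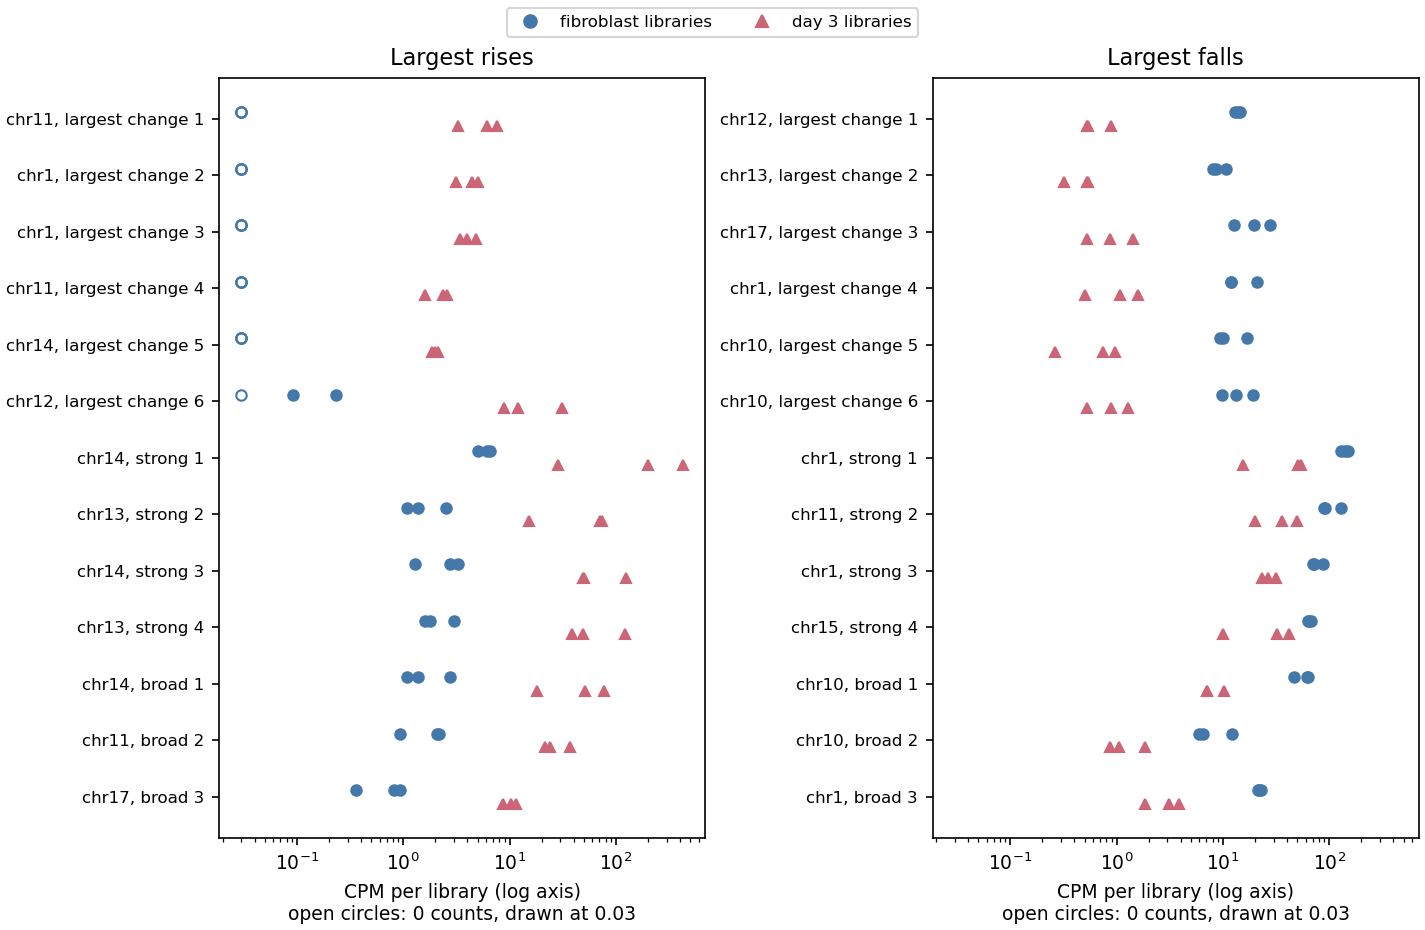
Level in each fibroblast and day 3 library (x axis, CPM on a log scale) for the named regions called at day 3 (y axis), 1 point per library. By the rule of selection, the 3 libraries of one group lie above the 3 of the other in every region shown. The first strong gain, on chromosome 14, spans 28.5 to 431 CPM at day 3.

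Among the named strong regions (average log2 CPM of at least 5), gains were larger than losses and had larger standard errors. They were picked as the largest changes of each direction, so they do not speak for all called regions of that level. The largest gain, chr14:63858329-63860065, had 6.57, 5.09 and 6.13 CPM in fibroblasts and 28.5, 431 and 203 CPM at day 3. All day 3 libraries were above all fibroblasts, as the rule for naming required, but day 3 replicate 1 was far below the other day 3 libraries. Its log2 fold change was 5.21 ± 0.90 (SE, edgeR's quasi-likelihood test, adjusted p = 5.52e-04), and 5.75 without day 3 replicate 1. At day 7 its mean was 55.0 ± 7.13 CPM (SD, n = 3).

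The region at chr13:116982528-116983883 had 1.09, 1.39 and 2.52 CPM in fibroblasts and 15.3, 73.6 and 70.9 CPM at day 3. Its log2 fold change was 5.18 ± 1.44 (adjusted p = 0.0203, edgeR's quasi-likelihood test), and 5.66 without day 3 replicate 1. This call was lost when fibroblast replicate 1 (adjusted p = 0.10), fibroblast replicate 2 (0.0703) or day 3 replicate 3 (0.050) was left out, and with fibroblast replicates 1 and 2 summed into 1 library (0.0664). All other named strong gains were called in every alternative. At chr14:63819108-63820631 levels rose from 1.28, 2.78 and 3.24 CPM to 49.3, 124 and 49.8 CPM, a log2 fold change of 5.11 ± 0.45 (adjusted p = 4.68e-13) and of 5.39 without day 3 replicate 1. At chr13:83800334-83802523 they rose from 3.01, 1.62 and 1.80 CPM to 49.1, 121 and 38.9 CPM, a log2 fold change of 4.90 ± 0.44 (adjusted p = 8.83e-13) and of 5.10 without day 3 replicate 1. In both, day 3 replicate 2 was the highest library. Whether reads from delivered copies of the factors fell in any of the named strong gains was not tested.

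The named losses in strong regions were moderate. All 4 missed the threshold of edgeR's quasi-likelihood test when no filter on low counts was used (adjusted p = 0.291, 0.519, 0.441 and 0.741 in the order below). The region at chr1:174429790-174434030 fell from 140, 149 and 128 CPM to 15.3, 54.1 and 51.4 CPM, a log2 fold change of -1.77 ± 0.36 and of -1.37 without day 3 replicate 1. At chr11:86393615-86396673 levels fell from 89.0, 90.9 and 129 CPM to 20.0, 49.8 and 35.6 CPM, a log2 fold change of -1.53 ± 0.37 and of -1.23 without day 3 replicate 1. With day 2 replicate 1 also left out the call was lost (adjusted p = 0.0867). In both, day 3 replicate 1 was the lowest library.

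The region at chr1:175841946-175844187 fell from 72.4, 70.3 and 86.5 CPM to 31.9, 26.6 and 23.3 CPM, a log2 fold change of -1.49 ± 0.30 and of -1.58 without day 3 replicate 1, which was the highest of the 3 there. At chr15:26822766-26826225 levels fell from 67.8, 64.5 and 62.7 CPM to 10.0, 41.5 and 32.5 CPM, a log2 fold change of -1.19 ± 0.34. Without day 3 replicate 1 this change was -0.79 (adjusted p = 0.0453, edgeR's quasi-likelihood test). Scaling by library totals alone ended its call (adjusted p = 0.0935), as did a test against a change of 1.5-fold (adjusted p = 0.0722). Of the 4 strong losses, chr1:175841946-175844187 was thus the one that day 3 replicate 1 did not enlarge.

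Broad regions, at least 3000 bases wide, changed in both directions. At chr14:20631417-20636434 levels rose from 2.74, 1.39 and 1.08 CPM to 17.9, 77.8 and 51.7 CPM, a log2 fold change of 4.64 ± 0.57 (edgeR's quasi-likelihood test, adjusted p = 3.68e-07). The region at chr11:83205616-83209061 rose from 2.10, 0.925 and 2.16 CPM to 37.2, 21.6 and 23.9 CPM (log2 fold change 3.93 ± 0.38). The last, chr17:28054629-28058575, rose from 0.821, 0.925 and 0.360 CPM to 8.70, 10.4 and 11.4 CPM (3.73 ± 0.39). The first was spread widely at day 3, while the last had nearly the same level in all 3 libraries.

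Among broad losses, chr10:85811699-85816263 fell from 62.8, 46.7 and 62.0 CPM to 7.12, 10.2 and 7.06 CPM, a log2 fold change of -2.81 ± 0.30. At chr10:10166899-10169937 levels fell from 6.02, 6.48 and 12.3 CPM to 1.85, 0.858 and 1.04 CPM (-2.80 ± 0.39). The region at chr1:191674937-191678147 fell from 21.3, 22.0 and 23.1 CPM to 1.85, 3.11 and 3.89 CPM (-2.78 ± 0.28). All 6 named broad regions were called in every alternative tried.

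A narrow and a wide class of regions differed in their balance of calls over all levels, and were close in balance at the 1 level at which they were matched. In regions over 200 and up to 500 bases wide, 17.6% rose and 4.35% fell, while in those over 3000 bases 15.7% rose and 10.8% fell. Gains made up 80.1% of the calls in the narrower class and 59.2% in the wider. With a level between 1 and 2, gains made up 62.4 and 63.5% of the calls, and the shares that rose and fell were 16.0 and 9.64% in the narrower class and 13.7 and 7.89% above 3000 bases. By chromosome, gains made up 53.2% of the calls on chromosome 1 and 67.2% on chromosome 17, and they were the majority on all 9 chromosomes of the table.

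Isolated regions showed a different balance from crowded ones, in classes that were not matched for level or width. Where the nearest tested region lay within 500 bases, 64.2% of the calls were gains. Where it lay more than 20000 bases away, 35.6% were gains (1422 regions, of which 4.71% rose and 8.51% fell). Across the distance classes the share that fell stayed between 7.98 and 9.86%, while the share that rose was 14.3% in the closest class.

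Neighbouring regions tended to be called in the same direction. After a region that rose, the next tested region had also risen in 22.6% of cases, against 13.2% of all regions, and had fallen in 6.36%. After a region that fell, the next had fallen in 15.4%, against 8.84% of all regions, and had risen in 9.65%. These shares depended on the gap. At 500 bases or less, 28.0% of the neighbours of a gain were gains and 20.6% of the neighbours of a loss were losses. At more than 20000 bases the shares were 11.7 and 12.9%, against 6.96 and 9.37% of all regions with such a gap. Neighbouring regions share position, depth and the way regions were called, and no test was made of these shares.

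**Figure D3:**
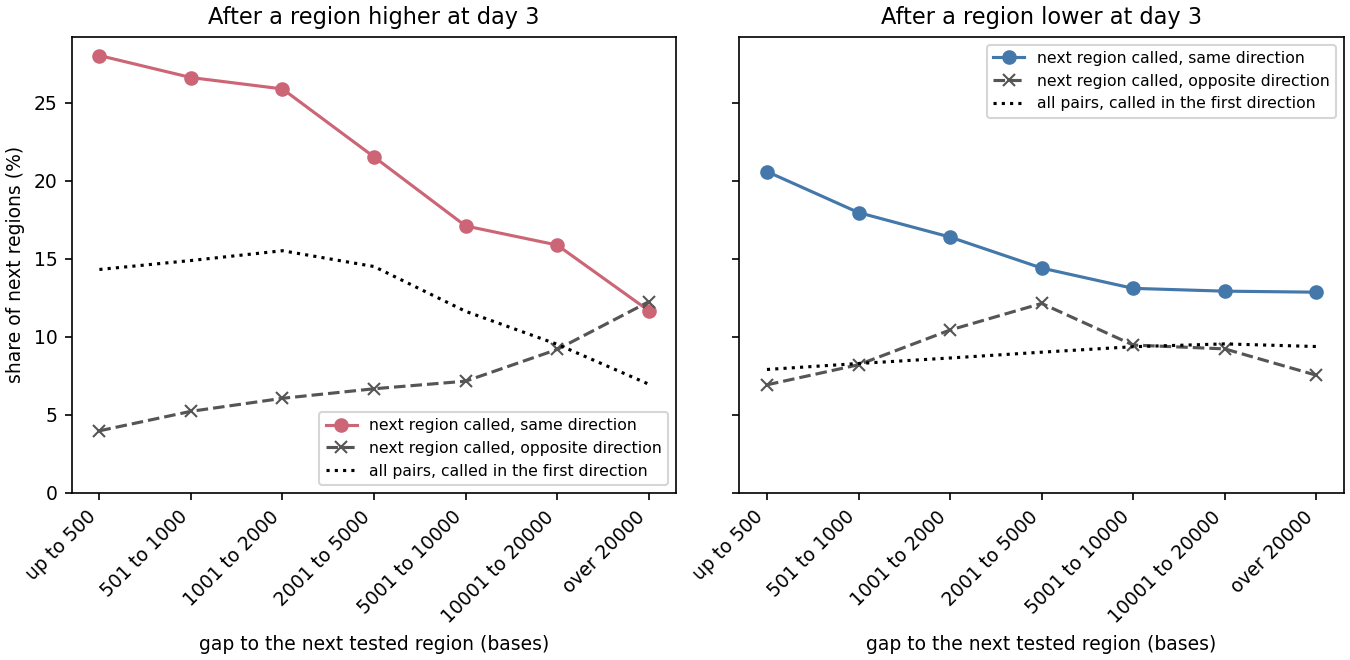
Share of next tested regions called in the same or the opposite direction (y axis, percent) by gap between the regions (x axis, bases), after a region that rose and after one that fell, with the share of all regions for that gap. Same-direction shares are highest at gaps of 500 bases or less, at 28.0% for gains and 20.6% for losses.

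Unbroken runs of regions called in one direction were mostly short. Gains fell into 14796 runs, of which 829 held at least 3 regions and 88 held at least 5. Losses fell into 10831 runs, of which 289 held at least 3 and 26 held at least 5. The longest run of losses was longer than the longest run of gains, at 26 regions against 14. The runs named next were picked for their length after their values were seen and carry no test.

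The longest run of losses spanned chr10:85777422-85829394 with 26 regions in 52.0 kb. Its summed level was 308, 285 and 279 CPM in fibroblasts and 50.9, 74.6 and 69.9 CPM at day 3, a ratio of fibroblasts to day 3 of 4.46. Further runs lay close together on chromosome 1. At chr1:71647328-71677167, 21 regions went from 192 ± 10.6 to 27.0 ± 10.7 CPM (SD, n = 3), and at chr1:71625818-71643651, 11 regions went from 136 ± 18.8 to 31.6 ± 16.3 CPM. Every tested region in these stretches was called lower.

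The longest run of gains spanned chr15:25844435-25887747 with 14 regions in 43.3 kb. Its summed level was 57.3, 51.8 and 60.2 CPM in fibroblasts and 272, 220 and 238 CPM at day 3. At chr14:35384781-35406026, 11 regions went from 40.7, 37.2 and 30.3 CPM to 65.1, 183 and 156 CPM, with day 3 replicate 1 nearest to the fibroblasts. At chr16:43632263-43663314, 9 regions went from 15.8, 15.3 and 11.9 CPM to 54.1, 48.5 and 50.8 CPM. The day 3 libraries were close to each other in the first and last of these and not in the second.

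Counts were also summed over all regions of the table in fixed windows of 100000 bases, which brings in regions too weak to be tested singly. Of 10668 windows tested, 956 rose and 703 fell, 15.6% in all (edgeR's quasi-likelihood test, adjusted p under 0.05). Changes on this scale were smaller, with a median log2 fold change of 0.63 for the gains and -0.50 for the losses, and 76 gains and 6 losses were at least 2-fold. The count and its balance moved with the setting. Leaving out fibroblast replicate 1 gave 692 windows and leaving out fibroblast replicate 2 gave 905. Leaving out day 3 replicate 3 gave 883 and leaving out day 3 replicate 1 gave 2686. With library totals alone 747 windows were called and 99.3% of them were gains, and with tested regions only 2483 were called and 47.7% were gains, against 57.6% as first given. The direction of the balance over windows thus differed between settings.

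Of the 5 largest rises and 5 largest falls with at least 20 tested regions and no overlap of the groups, 9 were called in every alternative tried. These windows were picked for the size of their change in the same libraries. Their calls therefore do not speak for the other called windows. The window of chromosome 14 from 63800001 held 49 tested regions, of which 20 rose and 1 fell. Its sum was 161, 163 and 187 CPM in fibroblasts and 360, 1083 and 650 CPM at day 3, a log2 fold change of 2.04 ± 0.37 (edgeR's quasi-likelihood test, adjusted p = 4.86e-04). The strong gains at chr14:63858329-63860065 and chr14:63819108-63820631 lie in it.

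On chromosome 13, the window from 83700001 held 23 tested regions, of which 10 rose and 1 fell. It went from 79.5, 71.9 and 71.0 CPM to 279, 366 and 164 CPM, a log2 fold change of 1.86 ± 0.25. By day 7 its mean was 119 CPM, against 431 CPM at day 2. On chromosome 15, the window from 25800001, which holds the longest run of gains, had 23 of 37 tested regions higher and none lower. It went from 101, 92.3 and 102 CPM to 367, 312 and 343 CPM (log2 fold change 1.79 ± 0.23), and at day 7 its mean was 375 CPM. The mean of the chromosome 13 window at day 7 was thus nearer to the fibroblasts than at day 3, and that of the chromosome 15 window was not, with no test of windows between these times. The other named gains were on chromosome 1 from 137700001, at 1.76 ± 0.32, and on chromosome 12 from 81100001, at 1.66 ± 0.20.

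Among windows that fell, that of chromosome 10 from 85800001 had 20 of 28 tested regions lower and 1 higher. It went from 267, 241 and 286 CPM to 73.0, 99.7 and 88.0 CPM, a log2 fold change of -1.60 ± 0.16 (edgeR's quasi-likelihood test, adjusted p = 4.06e-07). On chromosome 1, the window from 45400001 had 13 of 21 tested regions lower and none higher. It went from 150, 147 and 162 CPM to 60.6, 55.7 and 52.1 CPM (-1.45 ± 0.14). Also on chromosome 1, the window from 71600001, which holds both chromosome 1 runs named above, had 41 of 52 tested regions lower and went from 430, 438 and 582 CPM to 118, 235 and 177 CPM (-1.45 ± 0.24). Separation of the 2 groups in these windows was a condition of naming them.

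On chromosome 14 the window from 35700001 had only 5 of 26 tested regions lower, yet its sum went from 128, 123 and 128 CPM to 39.9, 76.3 and 65.2 CPM (log2 fold change -1.03 ± 0.20). On chromosome 1 the window from 174400001 went from 359, 356 and 371 CPM to 96.1, 251 and 218 CPM (-0.94 ± 0.28, adjusted p = 0.0219, edgeR's quasi-likelihood test). This call was lost with library totals alone (adjusted p = 0.138), in a fit of the 2 groups alone (0.0894), without fibroblast replicate 1 (0.0631), without fibroblast replicate 2 (0.0577) and with both summed (0.0583). It is the only one of the 10 named windows that lost its call in an alternative.

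**Figure D4:**
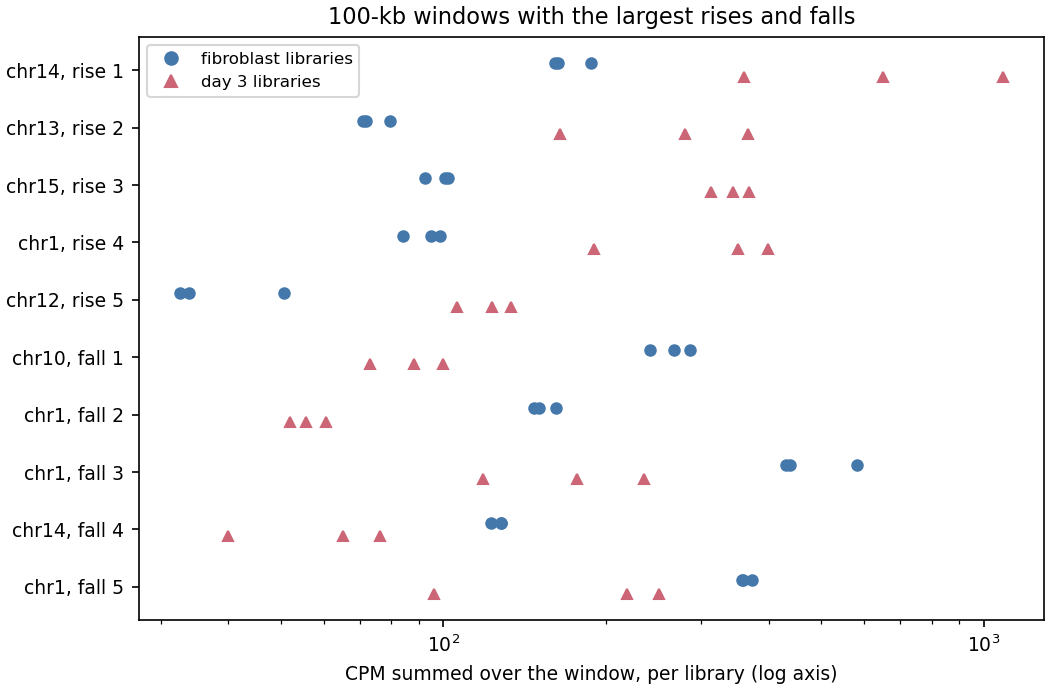
Summed level per library (CPM, log scale) of the 10 named windows of 100000 bases in fibroblasts and at day 3, 1 point per library. By the rule of selection, none of the 5 named gains or 5 named losses shows an overlap between the groups. The day 3 libraries are more spread than the fibroblasts in most windows.

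Windows often held calls of both directions, in counts that were not set against those expected from the shares of regions called. Of the windows, 6444 held at least 1 region that rose, 6462 held at least 1 that fell, 4234 held both and 1996 held neither. After a window that rose the next window had also risen in 25.0% of cases, against 8.97% of all windows, and after one that fell the next had fallen in 21.5%, against 6.60%. The longest unbroken runs were of 7 windows. Those that rose were on chromosome 12 from 16500001 to 17200000, with 69 of 194 tested regions higher, and on chromosome 13 from 11600001 to 12300000, with 104 of 269 higher and 1 lower. Those that fell were on chromosome 1 from 187600001 to 188300000 and on chromosome 10 from 118700001 to 119400000.

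The 3 regions of highest level were not called. The chromosome 1 region that took up to 49.4% of a library had a log2 fold change of -1.52 ± 0.77 (edgeR's quasi-likelihood test, adjusted p = 0.161), and with loess offsets the sign was reversed, at 2.33. The region at chr12:98299295-98300094 had -0.98 ± 1.08 (adjusted p = 0.589), also reversed with loess offsets, at 0.37. The third, chr17:39979967-39985735, went from 2770, 3238 and 3232 CPM to 1167, 4469 and 5061 CPM, a log2 fold change of 0.21 ± 0.47 (adjusted p = 0.803). Without day 3 replicate 3 it was -0.13, and with loess offsets it was 1.45 (adjusted p = 0.0621). Without day 3 replicate 1 it was 0.66 (adjusted p = 0.163). Without the day 2 and day 3 libraries of replicate number 1 it was also 0.66 and was called (adjusted p = 0.000918).

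Day 3 was then set against the neighbouring times. Between day 3 and day 2 no region was called by edgeR's quasi-likelihood test (percent called 0, with 5247 regions at an unadjusted p under 0.05), and DESeq2 also called 0. The smallest adjusted p was 0.664, and the middle of the distribution of log2 fold changes ran from -0.27 to 0.28 (quartiles). The absence of calls does not show that the 2 days were alike. The regions that rose by day 3 had a median of 3.98 CPM at day 2, 4.20 CPM at day 3, 4.18 CPM at day 7 and 3.63 CPM at both day 14 and day 21. Those that fell had 1.39, 1.26, 1.24, 1.35 and 1.35 CPM at these times. The sets were chosen on the day 3 and fibroblast libraries, so these medians are a description.

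Measured as a share of each library's counts in tested regions, with the chromosome 1 region left out, regions that rose held 7.03, 6.90 and 6.96% in fibroblasts and 27.2, 20.2 and 20.5% at day 3. Day 3 replicate 1 was again the highest, as was day 2 replicate 1 among its group, at 26.0% against 20.1 and 19.9%. From day 7 to day 21 the share lay between 18.5 and 21.7%. Regions that fell held 14.1, 14.1 and 15.6% in fibroblasts and 5.48, 5.24 and 4.95% at day 3, and 4.45 to 5.62% from day 7 on. No library of the 5 reprogramming groups lay near the fibroblast share in either set. Both sets were chosen on these fibroblast and day 3 libraries, so the gap is in part built in and these shares are a description.

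**Figure D5:**
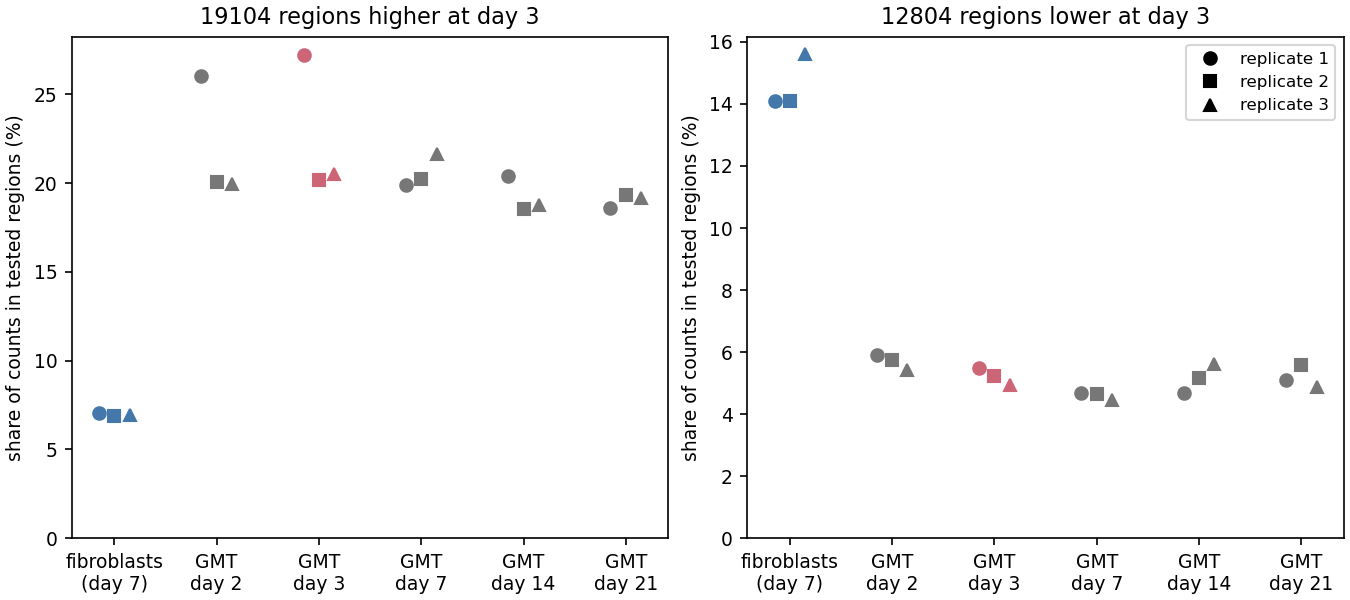
Share of each library's counts in tested regions, without the chromosome 1 region (y axis, percent), that fell in the regions called higher or lower at day 3, for all 18 libraries by group (x axis). Shares in the regions that rose are near 7% in the 3 fibroblast libraries and 18.5% or more in all others, and day 2 and day 3 replicate 1 lie above the rest. The regions were chosen on the fibroblast and day 3 libraries shown.

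Between day 7 and day 3, 12 regions differed (percent called 0.00829, edgeR's quasi-likelihood test, with 9196 regions at an unadjusted p under 0.05), 2 higher and 10 lower at day 7. Of the 10 that were lower, 6 lay between 83730819 and 83802523 of chromosome 13 and 2 between 63819108 and 63822711 of chromosome 14. Reads from delivered copies of the factors were not told apart from reads of chromatin in these regions. At chr13:83764596-83765336 the mean was 0.168 ± 0.147 CPM in fibroblasts, 25.1 ± 11.9 at day 2, 11.9 ± 5.99 at day 3 and 1.28 ± 0.836 at day 7 (SD, n = 3 in each). Its log2 fold change at day 7 against day 3 was -3.03 (adjusted p = 0.00228). At chr13:83772366-83773128 the mean went from 31.0 ± 19.0 CPM at day 3 to 3.70 ± 2.00 at day 7, a log2 fold change of -3.02 (adjusted p = 1.05e-04).

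At chr13:83795713-83796137 the mean went from 29.2 ± 18.6 to 4.04 ± 2.02 CPM, a log2 fold change of -2.80 (adjusted p = 1.51e-04). The strong gains at chr13:83800334-83802523 and chr14:63819108-63820631 were also among these 10, with log2 fold changes at day 7 against day 3 of -2.32 and -2.07. The count was 12 with DESeq2 as well, 4 without a filter on low counts and 4 without day 7 replicate 2. Losses named against fibroblasts gave no call between day 3 and day 7, and neither did most of the named gains. With 12 calls among 144810 regions, this does not set the losses apart.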

How the data were processed

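ATAC-seq libraries of 6 groups of 3, per the labels biological replicates, entered the analysis, and 18 further samples were not analysed here. The deposited table holds counts of reads per region as the authors made them, not normalized. Per the submitters' processing notes, Bowtie2, Picard, MACS2 and edgeR were used with build mm9. Their settings, any adapter offset and any pooling before the calling of peaks are unknown from the sources used here. The labels name sequencing at 2 cores without saying which library went where, so a core effect was not tested. The table as held covers chromosomes 1, 10 to 16 and chromosome 17 up to 79.1 Mb, and its last, incomplete line was dropped. Regions do not overlap.

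From these counts, edgeR 4.0.16 (R 4.3.3, limma 3.58.1) with library totals over the whole table and TMM factors was run on regions kept by filterByExpr (minimum count 10, minimum total 15), which held 79.2% of the counts. The lowest total kept over all libraries was 37 counts and the highest left out was 179. All 18 libraries were fitted together (glmQLFit with robust estimation, glmQLFTest, two-sided), with 12 residual degrees of freedom, a common biological coefficient of variation of 23.7% and Benjamini-Hochberg adjustment over 144810 regions. Standard errors are the absolute log2 fold change over the square root of F. Folds against a group without counts use 3 counts over that group. They allow for counting error alone, as reads carry no molecular identifiers. The script was checked on simulated counts in which 200 regions changed. It recovered 0 of 50 changes of 1.5-fold, 2 of 50 of 2-fold, 37 of 50 of 4-fold and 45 of 50 of 8-fold. Far fewer regions changed there than were called here, so these shares do not carry over to the comparisons above.

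Named regions were required to be called with no overlap of the groups and an average log2 CPM of 1 or more. They were the 6 largest rises and falls, the 4 largest of each whose average log2 CPM was 5 or more, the 3 largest of each at least 3000 bases wide, the 3 highest not called, and up to 3 called between neighbouring times. Windows were the 5 largest of each direction with at least 20 tested regions. Members and lists were chosen with earlier results of these data known. Classes of the mean level of both groups, runs and windows with calls of both kinds were chosen once values had been seen. Planned lists of genes and of cell type markers were not used, for want of an mm9 annotation. Alternatives were other scalings, filters, thresholds, DESeq2 1.42.0, a replicate block, window sizes and each library left out. The following were added after seeing the data, namely fibroblast replicates 1 and 2 summed for regions and for windows, and windows without the day 2 and day 3 libraries of replicate number 1.

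Fibroblast replicates 1 and 2 were the closest pair, with a chi-square per degree of freedom of 1.36 against 1.93 to 4.68 in the other pairs of each group, and were kept as separate samples. Whether they came from separate cultures is not stated, and p-values measure the spread between these libraries. Replicate numbers are given by the labels. Deviations from group means of day 2 and day 3 libraries with the same number correlated at 0.373, 0.246 and 0.119. Day 2 replicate 2 correlated slightly more with day 3 replicate 3, at 0.252, than with its own number. Likewise, day 2 replicate 3 correlated slightly more with day 3 replicate 2, at 0.135. The main fit held no pairing, and the replicate number entered as a block in an alternative only.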

Additional observations from a re-analysis of the deposited data

Results flagged for a closer look

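Effects against the same fibroblasts differed between day 3 and day 7 in 12 regions, by a test of day 7 against day 3 in which the fibroblasts do not enter (edgeR's quasi-likelihood test). The largest such differences were losses on chromosome 13. The log2 fold change at day 7 against day 3 was -3.03 at chr13:83764596-83765336, -3.02 at chr13:83772366-83773128 and -2.80 at chr13:83795713-83796137. In day 3 replicates 1 to 3 the first of these regions had 15.8, 14.9 and 5.01 CPM, with replicate 3 the lowest.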

How the results depend on the processing

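Against 31908 regions, the count of differences between day 3 and fibroblasts was 20131 at an adjusted p under 0.01, 19494 in a test against a change of 1.5-fold and 15639 without a filter on low counts, which tested 1391749 regions. Leaving out 1 library gave 20578 (fibroblast replicate 1) to 31002 (day 3 replicate 1). The other settings stayed between 26522 and 34089, and gains were the majority in every setting. Against 1659 windows, the count was 747 with library totals alone, 972 in a fit of the 2 groups, 3135 without the day 2 and day 3 libraries of replicate number 1, 864 with fibroblast replicates 1 and 2 summed, and 124 windows of 1000000 bases. Leaving out 1 library gave 692 to 2686. Between day 7 and day 3 the 12 calls became 5 in a fit of the 2 groups and 4 without a filter, and 4 to 13 with 1 library left out. Between day 3 and day 2 every setting gave 0. The causes of these shifts were not tested. Of 29 named regions called, 24 were called in all alternatives, and of 10 named windows 9 were, and none changed sign. These were picked for large changes in the same libraries, so they do not speak for the other calls. The regions of highest level, not called, reversed with loess offsets to 2.33 on chromosome 1 and 0.37 on chromosome 12, where that of chromosome 17 moved from 0.21 to 1.45. With 1 library left out the latter ran from -0.13 (day 3 replicate 3) to 0.66 (day 3 replicate 1). The shallowest libraries held 2.29 M counts at day 2 and 2.34 M in fibroblasts, and the effect of depth on the calls was not tested.

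With the replicate number as a block, 30720 regions and 1564 windows were called against fibroblasts, 0 regions between day 3 and day 2 and 11 between day 7 and day 3. The block changed no call of a named region or window. Same-numbered fibroblast and day 3 libraries correlated at 0.0067 to 0.067 and day 3 and day 7 libraries at -0.037 to 0.045. With different numbers the values were -0.074 to 0.015 and -0.078 to 0.031. Whether these same-numbered libraries share more than a number was not tested.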

Other observations

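Some windows of 100000 bases held calls in both directions and a sum that was not called. There were 25 windows with at least 5 regions higher and at least 5 lower at day 3, and 1 of them was called as a whole by edgeR's quasi-likelihood test. The window of chromosome 13 from 56700001 had 6 regions higher and 9 lower among 22 tested, and its sum was 130 ± 9.62 CPM in fibroblasts and 145 ± 10.6 CPM at day 3 (SD, n = 3; edgeR's quasi-likelihood test gave an adjusted p of 0.546). On chromosome 17 the window from 73300001 had 6 higher and 9 lower among 24 tested, with sums of 129 ± 10.1 and 140 ± 35.7 CPM. On chromosome 15 the window from 77600001 had 6 higher and 8 lower among 55 tested, with sums of 342 ± 32.4 and 322 ± 104 CPM. These windows were picked for their mixture of calls after the values were seen.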
